A study of Mus musculus with 10 samples.

Results

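The regions described here are the stretches of chromatin that were less accessible in Fntb-deficient (FntbKO) than in wild-type (WT) regulatory T (Treg) cells, in both of the Treg subsets that were profiled. Of 77076 regions in the deposited count table, 50786 had a mean of at least 3 CPM (reads scaled to a common library total) over the 6 WT libraries. In 3061 of these (6.03%) FntbKO libraries lay below WT libraries without overlap in both subsets, and 1616 (3.18%) were members. A member had a mean CPM over the 4 FntbKO libraries of at most 0.7 times the WT mean, with the highest FntbKO library below the lowest WT library in effector Treg (eTreg) cells and again in central Treg (cTreg) cells. Members were thus chosen by their CPM in the same libraries, so the difference between the genotypes is described here and not tested. What the choice did not use, and what is therefore tested, is the difference between the subsets. Members that move together in position, gene or sequence are described by their counts.

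Accessibility was measured by ATAC-seq, in which a transposase cuts open DNA and tags it for sequencing. The mouse Treg cells came from mixed bone marrow chimeras, hosts whose blood cells derive from more than 1 donor marrow, and were sorted from their lymph nodes and spleen. The groups were FntbKO eTreg (n = 2 libraries), WT eTreg (n = 3), FntbKO cTreg (n = 2) and WT cTreg cells (n = 3), all from such chimeras. The labels give neither the Fntb allele and what drives its deletion, nor the donor strains, the ages, or whether libraries came from separate hosts, so p-values measure only the spread between these libraries.

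The product of Fntb is the β chain of farnesyltransferase. This enzyme adds a farnesyl group, a short lipid, to the end of RAS proteins, nuclear lamins and others, which lets them reach membranes. Treg cells restrain immune responses. Their central form recirculates through lymphoid organs, and their effector form, which arises after activation, carries receptors and transcription factors such as CTLA-4, ICOS and c-MAF. Open regions outside promoters are often enhancers, at which transcription factors act on genes nearby, but a gene named here for a region gives its position and is not a shown target. In a bulk library a region open in fewer cells and a region less open in every cell cannot be told apart.

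Totals ranged between 5058328 and 15328775 counts per library. Foxp3, which defines Treg cells, had 30.6 to 34.9 CPM over its 3 regions in FntbKO eTreg, 28.1 to 31.8 in WT eTreg, 28.7 to 35.3 in FntbKO cTreg and 26.5 to 33.5 in WT cTreg libraries, and no region was assigned to the B cell marker Ms4a1 or to the myeloid marker Lyz2. On the first principal component (32.6% of the variance) the eTreg libraries lay at 0.691 and 28.7 in FntbKO and between 65.0 and 130.2 in WT, and the cTreg libraries at -155 and -67.1 in FntbKO and between -56.7 and 9.02 in WT. FntbKO cTreg 1 was the farthest out and WT cTreg 2 was the cTreg library nearest to eTreg cells, so results that rest on them are also given without them.

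No genome sequence was used, and the start-site windows of RefSeq (GRCm38.p6) give the sequences that can be shown. Each window runs from 250 bases before to 50 after an annotated start, and 157 members overlapped one. The windows below overlap members in which the 2 genotypes stood far apart: the interval beside Slc39a11, the Trim5 family cluster, and Fntb itself. The member beside Slc39a11 covers only an end of its window, without the marked CCAAT box. Capitals mark letter matches, on either strand, to 4 short motifs, AP-1 (TGANTCA), the SP/KLF box (GGGCGG), the CCAAT box (CCAAT) and the TATA box (TATAAA).
LOC115487747, a lncRNA start in the interval beside Slc39a11 (chr11:113173034-113173333, minus strand, CCAAT box): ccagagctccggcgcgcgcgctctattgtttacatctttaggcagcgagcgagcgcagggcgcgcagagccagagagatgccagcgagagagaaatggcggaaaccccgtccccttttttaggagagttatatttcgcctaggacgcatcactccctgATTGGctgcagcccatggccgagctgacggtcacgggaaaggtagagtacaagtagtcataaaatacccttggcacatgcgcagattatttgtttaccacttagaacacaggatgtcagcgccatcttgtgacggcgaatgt
Gm15133, a lncRNA start in the Trim12a member (chr7:104314781-104315080, plus strand, AP-1): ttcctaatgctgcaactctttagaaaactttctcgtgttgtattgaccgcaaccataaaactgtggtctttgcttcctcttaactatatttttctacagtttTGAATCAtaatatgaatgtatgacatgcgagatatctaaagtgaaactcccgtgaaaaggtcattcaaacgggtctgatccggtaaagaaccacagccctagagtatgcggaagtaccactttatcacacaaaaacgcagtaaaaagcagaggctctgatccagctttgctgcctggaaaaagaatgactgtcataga
Trim30d (chr7:104507800-104508099, minus strand, TATA box, CCAAT box and AP-1): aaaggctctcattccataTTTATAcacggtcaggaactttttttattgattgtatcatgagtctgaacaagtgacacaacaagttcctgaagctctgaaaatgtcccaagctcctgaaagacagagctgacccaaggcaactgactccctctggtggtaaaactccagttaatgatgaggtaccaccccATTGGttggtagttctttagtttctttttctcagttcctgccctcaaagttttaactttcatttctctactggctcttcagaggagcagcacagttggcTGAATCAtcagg
Fntb (chr12:76837217-76837516, plus strand, SP/KLF): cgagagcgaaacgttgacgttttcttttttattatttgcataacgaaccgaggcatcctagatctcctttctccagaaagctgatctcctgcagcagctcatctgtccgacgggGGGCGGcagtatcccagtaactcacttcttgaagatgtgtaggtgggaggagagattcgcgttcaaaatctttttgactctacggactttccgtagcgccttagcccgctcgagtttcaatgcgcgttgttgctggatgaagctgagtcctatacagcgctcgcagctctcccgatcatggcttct
The N of the AP-1 letters stands for any base, and both marked AP-1 stretches read TGAATCA. A match describes letters in this window and is not a shown binding site.

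The Fntb locus held 2 members. The first lies on the Fntb start (chromosome 12, 76837192 to 76837915), over the window printed above. It had 11.5 and 7.50 CPM in the FntbKO eTreg libraries, against 29, 30.9 and 29.9 CPM in the WT eTreg libraries. The cTreg libraries had 12.9 and 11.2 CPM in FntbKO, against 36.4, 29.9 and 33.5 CPM in WT cells. Every FntbKO library was below every WT library, and the mean ratio of FntbKO to WT was 0.341. The second member lies inside the gene span (76837400 to 76921412), at 76844676 to 76845058, 7.21 kb from the start, with 1.98 and 1.19 CPM in FntbKO eTreg, against 4.51, 4.78 and 5.38 CPM in WT eTreg libraries. In cTreg cells it had 1.88 and 2.48 CPM in FntbKO and 10.2, 8.78 and 10.1 CPM in WT libraries. The labels do not say which part of Fntb was removed, so these values do not map the deletion. Of the other 14 listed genes of prenylation and the lamina, Lmna, which encodes the farnesylated prelamin A, had a member 0.004 kb from its start (mean ratio 0.652), and the list had 3 members of 55 regions.

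**Figure D1:**
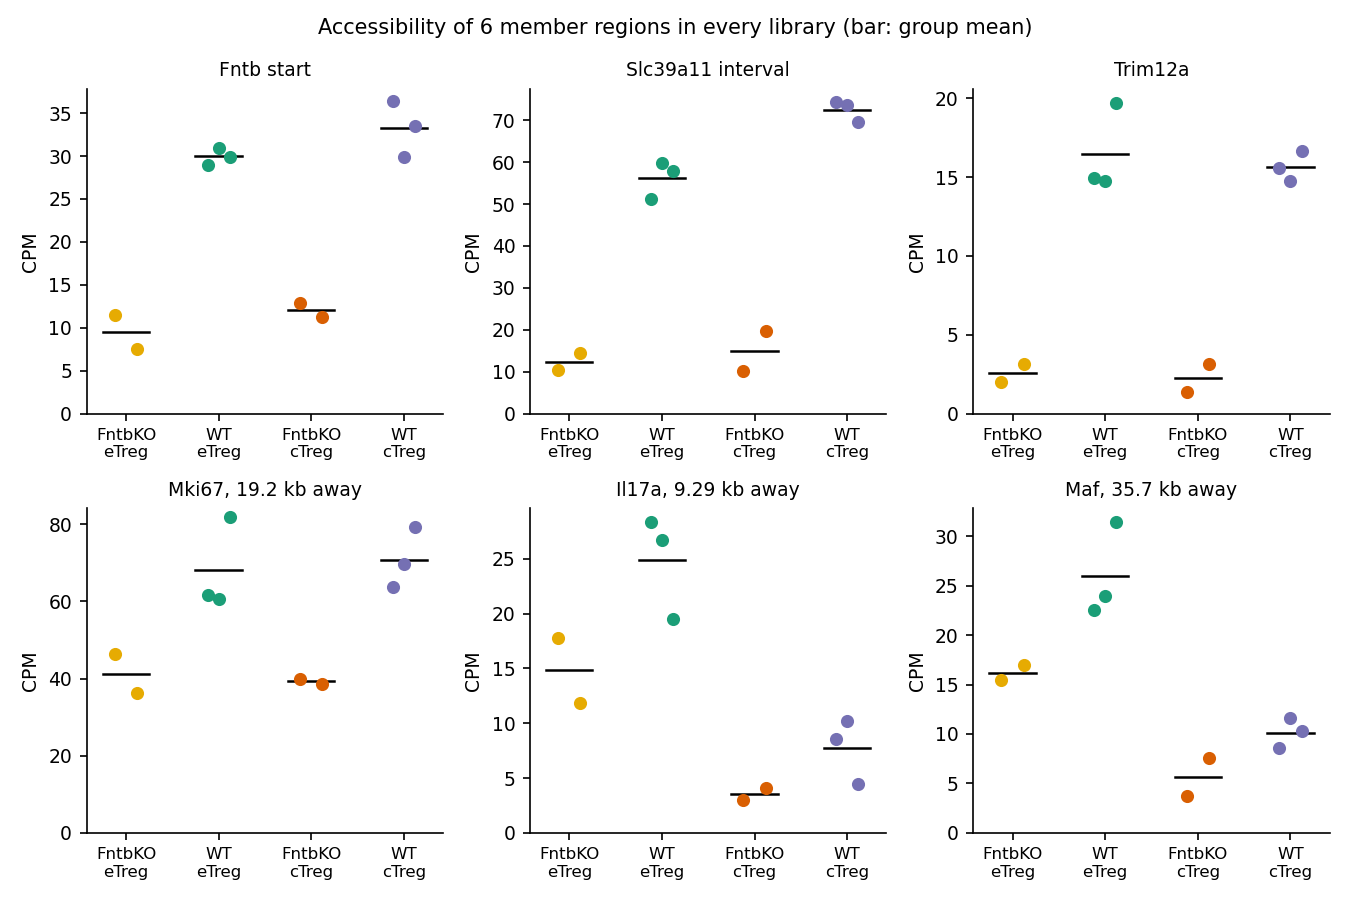
CPM (vertical axis, from 0) of 6 members in each library, grouped as FntbKO eTreg, WT eTreg, FntbKO cTreg and WT cTreg; points are libraries and bars are group means. FntbKO points lie below WT points in each subset by the choice of members, and the Il17a and Maf members are also higher in eTreg than in cTreg libraries of the same genotype.

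Across the 1616 members the ratio of FntbKO to WT mean CPM had a median of 0.573, with quartiles of 0.475 and 0.636 and a minimum of 0.0637. It was at most 0.5 in 482 members and at most 0.25 in 54, while 645 lay above 0.6, near the limit. The median ratio was 0.584 in eTreg and 0.539 in cTreg cells, against 0.995 and 0.983 over the 50786 regions that the WT level admitted. The ratio was lower in cTreg than in eTreg cells in 1002 members (62.0%). In edgeR's fit the median log2 fold of FntbKO over WT was -0.75 in eTreg and -0.84 in cTreg cells, and 0.00 and -0.01 over all 76216 tested regions. Without FntbKO cTreg 1 and WT cTreg 2 the members' median in cTreg cells was -0.62. By edgeR at an adjusted p under 0.05, 104 members were among the regions called lower in FntbKO eTreg cells, where 0.169% of all tested regions were called lower. In cTreg cells 213 members were called lower, against 0.378% of all tested regions, and 69 members were called in both subsets. These calls use the contrast that chose the members and support nothing about them.

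All 1616 members passed the filter on low counts, and none had 3 counts or fewer in an FntbKO group. Members were mostly regions of low to middle accessibility, with a median WT mean of 7.02 CPM, against 9.27 CPM over all admitted regions. They made up 4.06% of regions with a WT mean of 3 to 5 CPM, 3.95% of those of 5 to 10 and 3.61% of those of 10 to 20. Only 1.64% of regions of 20 to 50 CPM and 17 of 4403 regions of 50 CPM or more (0.386%) were members. Together they held 1.04% and 1.15% of all counts in the FntbKO eTreg libraries, against 1.80%, 1.79% and 1.94% in the WT eTreg libraries. In cTreg cells they held 0.715% and 0.909% in FntbKO, against 1.39%, 1.69% and 1.39% in WT libraries.

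Because the choice used every library, the same rule was also applied with 1 FntbKO and 1 WT library of a subset left out, and these 2 libraries were then compared with each other. Over the 12 such pairs it chose 1779 to 2972 regions. The left-out FntbKO library lay below the left-out WT library in 68.8% to 87.5% of them (median 81.1%), against 46.9% to 55.1% of all admitted regions. The median log2 ratio in the left-out pair was between -0.86 and -0.23 for the chosen regions and between -0.05 and 0.03 for all. With a single library left out, it lay on the side the rule asks for in 67.6% (FntbKO cTreg 2) to 90.0% (WT cTreg 2) of the regions chosen without it, against 25.1% to 41.3% of all admitted regions. The regions chosen in these ways are not the 1616 members, and libraries of the same replicate number in the other subset stayed in the choice. The rule with the genotypes exchanged, which picks regions more accessible in FntbKO cells in both subsets, gave 1441 regions.

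The members with the lowest ratios at or above the median WT level lay in or beside genes of unlike function. A region 3.19 kb from Ddr1, which encodes a collagen-binding receptor tyrosine kinase (chromosome 17, 35707930 to 35708261), had the lowest ratio, 0.139. The FntbKO eTreg libraries had 0.791 and 1.78 CPM there, against 7.48, 5.50 and 5.21 CPM in the WT eTreg libraries. Among cTreg libraries the values were 0 and 1.70 CPM in FntbKO, against 9.64, 8.25 and 9.95 CPM in WT cells. A region inside Ptprm, a receptor-type tyrosine phosphatase gene (chromosome 17, 67193881 to 67194472), had 0.988 and 1.58 CPM in FntbKO eTreg and 7.59, 5.60 and 8.75 CPM in WT eTreg libraries. It had 1.07 and 1.70 CPM in FntbKO cTreg and 12.8, 10.2 and 9.63 CPM in WT cTreg libraries, so the groups stood apart in both subsets. A region inside Gpc5, which encodes a heparan sulfate proteoglycan of the cell surface (chromosome 14, 116210279 to 116210760), varied widely among WT libraries. It had 1.98 and 3.26 CPM in the FntbKO eTreg libraries, against 17.2, 15.1 and 7.40 CPM in the WT eTreg libraries. The cTreg libraries had 1.61 and 3.98 CPM in FntbKO, against 26.6, 29.5 and 5.78 CPM in WT cells. WT cTreg 3 and WT eTreg 3 were both far below the other WT libraries there and still above every FntbKO library of their subset. Mtus2 (chromosome 5, ratio 0.187) and the start of Klhl4 (X chromosome, 0.187) held members of similar depth of difference.

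Of the 5 members named for the highest WT level, the one beside Slc39a11 is described with its locus below. A region in Rbbp8nl (chromosome 2, 180276717 to 180277253) had the highest WT mean, 90.1 CPM, with 58.3 and 61.2 CPM in FntbKO eTreg, against 103, 95.2 and 99.9 CPM in WT eTreg libraries. In cTreg cells it had 53 and 59.7 CPM in FntbKO and 77.4, 89.9 and 75.1 CPM in WT libraries. A region 19.2 kb from Mki67, which encodes the proliferation marker Ki-67 (chromosome 7, 135735624 to 135736135), had 46.5 and 36.1 CPM in FntbKO eTreg and 61.7, 60.7 and 81.9 CPM in WT eTreg libraries. Its cTreg values were 40.0 and 38.6 CPM in FntbKO and 63.6, 69.7 and 79.3 CPM in WT libraries, so it differed by genotype in both subsets at nearly the same level in each. The members nearest to the limit had ratios of 0.70 (beside Ski, inside Alad, and a region of chromosome 4 with no gene within 100 kb). Just outside it, with the other conditions met, lay regions beside Ubl3 and Eml4 and inside Ache, also at 0.70.

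The largest group of neighbouring members lay on chromosome 11 beside and partly inside Slc39a11, which encodes the zinc transporter ZIP11. Over 302 kb (113060975 to 113363088), 22 of 24 admitted regions were members, with a median ratio of 0.376. The most accessible of them (113173931 to 113174741) lay 0.848 kb from the LOC115487747 start printed above. The FntbKO eTreg libraries had 10.3 and 14.4 CPM there, against 51.1, 59.8 and 57.9 CPM in the WT eTreg libraries. Among cTreg libraries the values were 10.2 and 19.7 CPM in FntbKO, against 74.2, 73.8 and 69.6 CPM in WT cells. The neighbouring region (113172860 to 113173064, 0.019 kb from the start) reaches only an end of the printed window. Neither the start nor the marked CCAAT box lies inside it. This region had 0 and 2.17 CPM in FntbKO eTreg, against 7.71, 7.43 and 7.57 CPM in WT eTreg libraries. In cTreg cells it had 0.537 and 1.70 CPM in FntbKO, against 8.27, 7.90 and 7.81 CPM in WT libraries. Neither of these 2 regions was called between the subsets in the average over genotypes, and the median log2 fold of eTreg over cTreg in the locus was 0.06.

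A run of 8 members with no admitted region between them that was not a member lay beside and in Sh3gl3, which encodes endophilin A3, a protein of membrane curvature (chromosome 7, 82110019 to 82241010). These 8 regions had a median ratio of 0.335 and low levels. The one at 82110019 had 1.19 and 0.593 CPM in FntbKO eTreg and 3.32, 1.83 and 4.71 CPM in WT eTreg libraries, and in cTreg cells 0 and 0.391 CPM in FntbKO and 3.58, 3.51 and 3.00 CPM in WT libraries. It rested on 12 counts in all in FntbKO eTreg and 6 in FntbKO cTreg cells. Another part of chromosome 11 (109193236 to 109674070, from Rgs9 to Fam20a) held 20 members of 54 admitted regions, with a median ratio of 0.568, and there the regions that were not members were in the majority.

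TRIM proteins act in innate immunity, and TRIM5, best known from primates, recognises retroviral capsids. The cluster of Trim5 and related genes on chromosome 7 held 5 members, 4 of them within 25 kb of each other. The list had 13 admitted regions, so the share was 38.5%, against 3.18% of all admitted regions. Lists were chosen with earlier results of these data known, so this share supports nothing about the cluster. A region beside Trim5 (104291329 to 104291961) had 1.58 and 3.85 CPM in FntbKO eTreg and 14.2, 16.1 and 19.2 CPM in WT eTreg libraries. In cTreg cells it had 1.34 and 4.83 CPM in FntbKO and 24, 22.5 and 22.3 CPM in WT libraries, so every WT library was several times above every FntbKO library. The Trim12a member, over the Gm15133 window (104314661 to 104315361), had 1.98 and 3.16 CPM in FntbKO eTreg, against 15, 14.8 and 19.7 CPM in WT eTreg libraries. Its cTreg values were 1.34 and 3.13 CPM in FntbKO and 15.6, 14.8 and 16.7 CPM in WT libraries. The Trim30d member on the printed start (104507678 to 104508118) had 0.791 and 1.98 CPM in FntbKO eTreg and 9.02, 6.92 and 8.07 CPM in WT eTreg libraries, with 0.537 and 1.30 CPM in FntbKO cTreg and 8.54, 6.15 and 5.46 CPM in WT cTreg libraries. Over all 13 admitted regions of the list the median ratio was 0.894. No member of the cluster was called between the subsets in the average over genotypes.

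**Figure D2:**
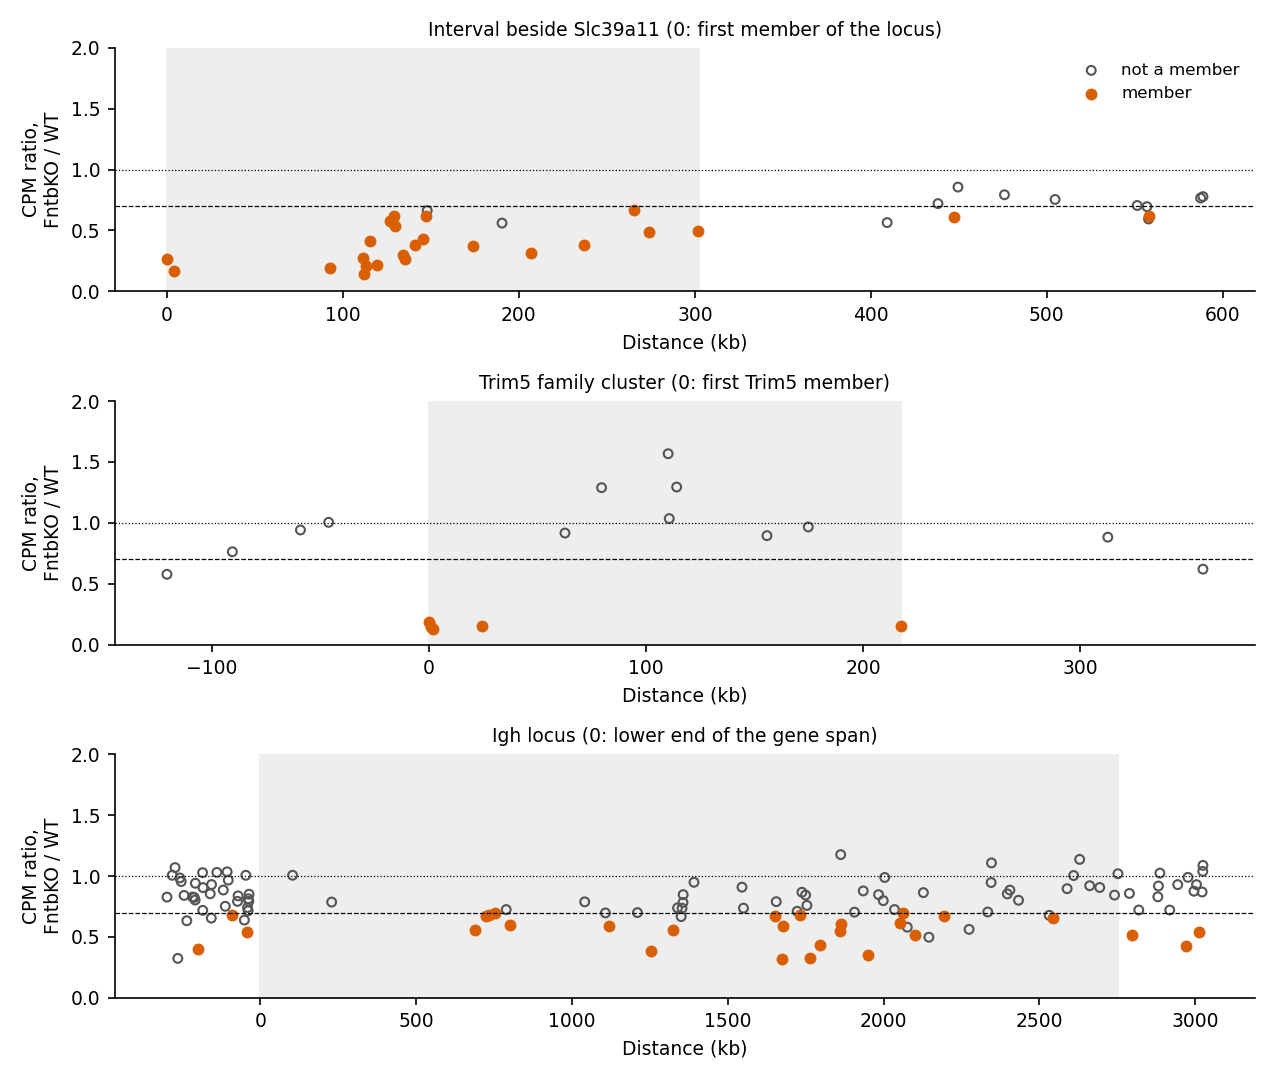
Ratio of FntbKO to WT mean CPM (vertical axis) of each region with a WT mean of at least 3 CPM, by its distance in kb (horizontal axis), at the interval beside Slc39a11, the Trim5 family cluster and the Igh locus. Filled points are members, open points are other regions, grey marks the locus, the dotted line is 1 and the dashed line is the limit of 0.7. Nearly all regions are low in the interval beside and partly inside Slc39a11 (22 of 24), while members and other regions alternate in the other loci.

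The immunoglobulin heavy chain locus (Igh, chromosome 12, 113258768 to 116009954), which only B cells rearrange in full, held the most members of any assigned gene, 22 of its 65 admitted regions (33.8%). Of these, 18 lay on V segments and 0 on C regions. Their median ratio was 0.593, and that of the Igh regions that were not members 0.801. The member with the lowest ratio (114932199 to 114932527) had 2.37 and 2.96 CPM in FntbKO eTreg, against 11.2, 7.94 and 9.42 CPM in WT eTreg libraries. In cTreg cells it had 1.88 and 3.00 CPM in FntbKO, against 7.99, 4.57 and 7.60 CPM in WT libraries. Regions of B cell list genes, admitted or not, summed to 131 to 149 CPM in FntbKO and 146 to 150.3 in WT eTreg libraries. In cTreg libraries they summed to 159 to 163 CPM in FntbKO and 151 to 160.2 CPM in WT cells. Pax5, which fixes B cell identity, had 6.33 to 13.3 CPM over its regions in FntbKO eTreg and 12.2 to 18.2 CPM in WT eTreg libraries, and 3.22 to 6.26 CPM in FntbKO cTreg and 7.71 to 16.3 CPM in WT cTreg libraries. The B cell receptor gene Cd79a had 4.94 to 6.52 CPM in FntbKO eTreg and 3.46 to 4.37 CPM in WT eTreg libraries, and 5.81 to 8.46 CPM in FntbKO cTreg and 5.46 to 6.89 CPM in WT cTreg libraries. Only Pax5, of these, was lower in FntbKO cells without overlap, and only in cTreg cells. The part of B cells in the Igh values was not tested.

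The difference between the subsets, which took no part in the choice, ran mostly one way. In the comparison of eTreg with cTreg cells averaged over both genotypes, 419 members were called by edgeR at an adjusted p under 0.05 (25.9%), against 11.0% of all 76216 tested regions. Of these, 405 were higher in eTreg cells (25.1% of members, against 6.14% of all tested regions) and 14 were lower (0.866%, against 4.84%). The median log2 fold of members was 0.31, against -0.01 over all tested regions, and 1244 of 1616 members (77.0%) were positive. Over the 50786 admitted regions 13.0% were called, 7.14% higher and 5.88% lower. The subset comparison and the choice of members use the same libraries, and no test of the members against other regions was run. Regions picked with the genotypes exchanged leaned the other way, with 32 called higher and 248 lower in eTreg cells and a median of -0.28.

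Within each genotype the direction was the same. In FntbKO cells 87 members were called (5.38%), all 87 of them higher in eTreg cells, where 1.36% of all tested regions were called, 0.966% higher and 0.39% lower. In WT cells 157 were called (9.72%), 152 higher and 5 lower, where 3.44% of all tested regions were called, 1.83% higher and 1.61% lower. The medians were 0.37 in FntbKO and 0.29 in WT cells. In both genotypes 49 members were called higher, and the share of all tested regions is not given for this count. These counts depended on single libraries. The FntbKO count came to 1 when FntbKO cTreg 1 was left out, 2 when FntbKO eTreg 2 was, 29 when FntbKO eTreg 1 was, 180 when FntbKO cTreg 2 was and 138 when WT cTreg 2 was. For WT cells, leaving out WT cTreg 3 gave 30 calls, WT eTreg 3 gave 41, WT cTreg 1 gave 49 and WT eTreg 1 gave 59. The averaged count was 238 without FntbKO cTreg 1 and 191 without FntbKO eTreg 2 (11.8% of members), and 167 of the 405 members called higher kept that call without each library in turn. Without FntbKO cTreg 1 and WT cTreg 2 together the counts were 8 in FntbKO, 269 in WT and 316 averaged. The medians stayed positive in all of these fits.

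**Figure D3:**
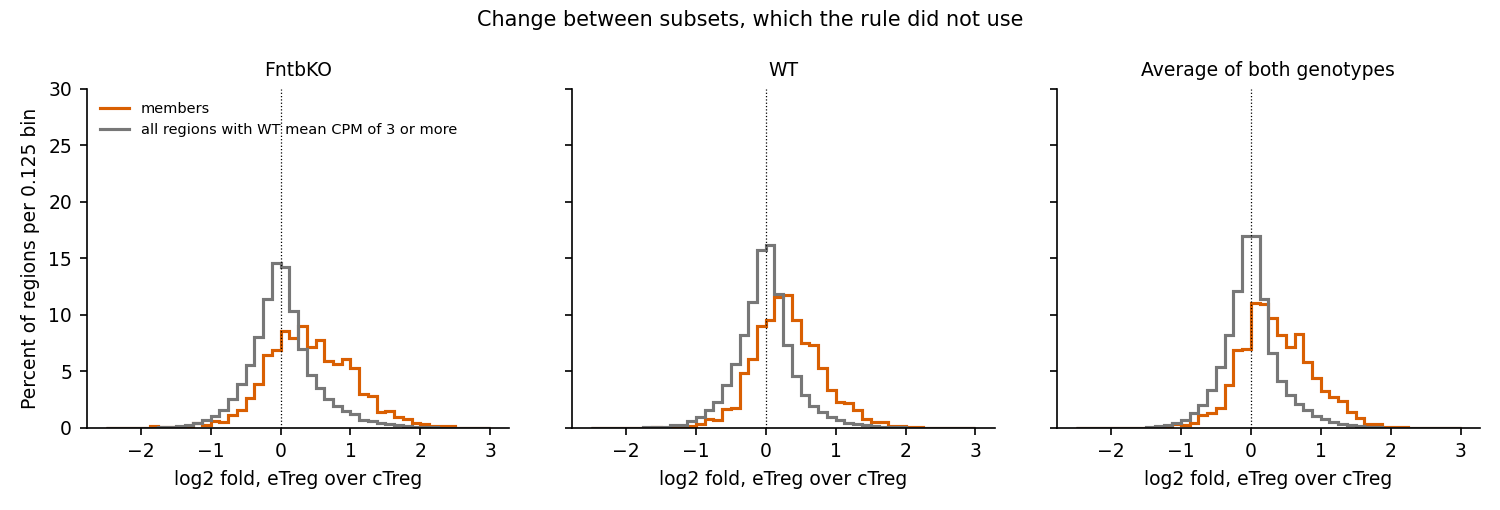
Distribution of the log2 fold of eTreg over cTreg (horizontal axis) as percent of regions per bin (vertical axis) in FntbKO cells, in WT cells and averaged, for the 1616 members and for all 50786 regions with a WT mean of at least 3 CPM. The members' distribution lies to the right, with medians of 0.37, 0.29 and 0.31, while that of all regions centres on 0.

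For the 405 members called higher in eTreg cells, the median levels were 7.71 CPM in FntbKO eTreg, 13.3 in WT eTreg, 3.62 in FntbKO cTreg and 7.33 in WT cTreg cells. Their FntbKO eTreg mean was above their WT cTreg mean in 231 (57.0%). The 1197 members that were not called had medians of 3.56 CPM in FntbKO eTreg, 6.46 in WT eTreg, 3.17 in FntbKO cTreg and 6.10 in WT cTreg cells. The 14 called lower had medians of 1.65 CPM in FntbKO eTreg, 4.01 in WT eTreg, 3.60 in FntbKO cTreg and 6.43 in WT cTreg cells. The order of these medians by genotype and by subset follows from how the regions were picked, and the values are given for their levels.

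The effector Treg list held 18 members among its 337 admitted regions (5.34%, against 3.18% of all admitted regions), in 12 of its genes. Of the 18, 12 rose and 0 fell in eTreg cells, where 25.1% of all members and 6.14% of all tested regions were called higher. The genes were listed for effector Treg cells, and the share of rises among all 337 regions is not given here. A region 35.7 kb from Maf, whose product c-MAF is a transcription factor of effector T cells (chromosome 8, 115742593 to 115743118), had 15.4 and 17 CPM in FntbKO eTreg and 3.76 and 7.57 CPM in FntbKO cTreg libraries. In WT cells it had 22.5, 23.9 and 31.4 CPM in eTreg and 8.54, 11.6 and 10.3 CPM in cTreg libraries. All 5 eTreg libraries were above all 5 cTreg libraries (log2 fold 1.41, SE 0.17, adjusted p = 1.58e-05), and the call held without each library. A region 14.5 kb from Ctla4, the inhibitory receptor by which Treg cells restrain other cells, lay on chromosome 1 (60930361 to 60930931). It rose by 1.19, SE 0.29, adjusted p = 0.00901, and the call ended when FntbKO cTreg 2 was left out. Over its 20 regions Ctla4 had 94.4 to 103.6 CPM in FntbKO eTreg and 81.9 to 90.1 CPM in WT eTreg libraries. In cTreg cells it had 80.0 to 83.3 CPM in FntbKO and 83.8 to 99.6 CPM in WT libraries. Ctla4 as a whole was thus higher in FntbKO eTreg cells, unlike this member, and lower in FntbKO cTreg cells. Regions at the start of S100a4, a calcium-binding protein gene (1.02, SE 0.26, adjusted p = 0.012), and in Ccr2, a chemokine receptor gene (1.17, SE 0.29, adjusted p = 0.0094), also rose, and both calls were lost without FntbKO cTreg 1 or FntbKO eTreg 2. Entpd1 and Nt5e, whose products CD39 and CD73 turn ATP into adenosine, Il10, Tigit, Pdcd1, Havcr2, Ccr4 and Ccr8 held the other members of this list. The central Treg list held 5 members of 385 regions (1.3%), of which 2 rose, beside Bach2 and Dapl1, and 0 fell. The Dapl1 call was lost without any of 8 libraries, with total counts as scaling and with DESeq2's test. Regions of the central list's genes, admitted or not, summed to 6035 to 6105 CPM in FntbKO and 5171 to 5837 in WT eTreg libraries. In cTreg libraries they summed to 6743 to 6878 CPM in FntbKO and 6154 to 6535 CPM in WT cells. These sums were higher in FntbKO without overlap in both subsets. Regions of the effector list's genes, likewise, summed to 5534 to 5817 CPM in FntbKO and 5627 to 6006 in WT eTreg libraries, which overlapped. In cTreg libraries they summed to 4889 to 5271 CPM in FntbKO and 5188 to 5707 CPM in WT cells, which also overlapped. The part of such a shift between list levels in the members' values was not tested.

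A region beside a helper T cell gene was among the strongest subset changes. This region, 9.29 kb from Il17a, the cytokine gene of the Th17 type (chromosome 1, 20743785 to 20744360), had 17.8 and 11.8 CPM in FntbKO eTreg and 2.95 and 4.04 CPM in FntbKO cTreg libraries. In WT cells it had 28.4, 26.8 and 19.5 CPM in eTreg and 8.54, 10.2 and 4.49 CPM in cTreg libraries. The subsets did not overlap, and the log2 fold was 1.87, SE 0.20, adjusted p = 1.21e-05. The call held without each library. The helper T cell list held 4 members of 171 regions (2.34%, against 3.18% of all admitted regions), those of Il17a, Il4 and Ifng among them. Of the 4, 2 rose, where 25.1% of all members and 6.14% of all tested regions were called higher.

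Of the Treg identity genes, Ikzf2, which encodes the transcription factor Helios, and Nrp1, a surface receptor of thymus-derived Treg cells, held 4 members of 152 regions. The Ikzf2 member, 61.4 kb from the gene (chromosome 1, 69469127 to 69469776), had 3.56 and 2.77 CPM in FntbKO eTreg and 0.805 and 1.96 CPM in FntbKO cTreg libraries. In WT cells it had 10.4, 8.14 and 8.75 CPM in eTreg and 3.03, 2.81 and 2.78 CPM in cTreg libraries. It rose in eTreg cells (log2 fold 1.36, SE 0.27, adjusted p = 0.00174), with the call kept without each library, and the FntbKO eTreg libraries lay near the WT cTreg ones. Over its 51 regions Ikzf2 had 66.4 to 72.5 CPM in FntbKO and 65.1 to 71.8 CPM in WT eTreg libraries, which overlapped. In cTreg cells it had 62.8 to 63.8 CPM in FntbKO and 65.8 to 71.1 CPM in WT libraries, without overlap. Ikzf2 as a whole was thus not lower in FntbKO eTreg cells, unlike this member. None of the Foxp3 regions was a member.

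Among AP-1 and IRF family genes 6 of 198 regions were members (3.03%, against 3.18% of all admitted regions). Of the 6, 3 rose in eTreg cells, where 25.1% of all members and 6.14% of all tested regions were called higher. A region 58.3 kb from Bach2, a repressor that holds T cells in a quiescent state (chromosome 4, 32179613 to 32180130), rose by 0.75, SE 0.15, adjusted p = 0.00191. That call was kept without each library. A region 58.6 kb from Nfe2l2, which encodes the stress factor NRF2, had a ratio of 0.195, with 0.791 and 1.38 CPM in FntbKO eTreg and 5.70, 6.31 and 4.71 CPM in WT eTreg libraries. The TCR-induced list had 3 members of 209 regions, beside Cd69 (1.16, SE 0.29, adjusted p = 0.0112), beside Tnfaip3, which encodes the NF-κB inhibitor A20 (1.27, SE 0.35, adjusted p = 0.0191), and in Nfatc1 (1.06, SE 0.34, adjusted p = 0.0416). All 3 rose in eTreg cells, where 25.1% of all members and 6.14% of all tested regions were called higher. The Cd69 call held without each library, that of Tnfaip3 was lost without FntbKO cTreg 1, FntbKO eTreg 2 or WT eTreg 3, and that of Nfatc1 without any of 9 libraries. TCR signalling genes had 4 members of 240 regions (1.67%), and 2 of the 4 rose, with the same shares of all members and regions. Among these was a region beside Ptprc, which encodes CD45 (0.70, SE 0.18, adjusted p = 0.0113).

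The lists of signalling, metabolism and growth are given beside the 3.18% of all admitted regions that were members, with no test. The RAS and ERK cascade had 1 member of 182 regions (0.549%), beside Rap1a, and the mTORC1 and amino acid list had 1 of 80, in Rptor. Neither was called between subsets. Sterol synthesis genes had 0 of 48 and interferon response genes 0 of 32. Apoptosis genes had 2 of 141, both beside Pmaip1, which encodes the cell death protein NOXA, and 1 of them rose (1.02, SE 0.18, adjusted p = 0.000549), a call kept without each library. Cell cycle genes had 2 of 98, the Mki67 region above and one in Ccnd3, which encodes cyclin D3 and rose by 1.34, SE 0.30, adjusted p = 0.00477. A list with 0 members may still hold regions that differ by less than the choice asks for.

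Markers of other cell types were also among the members. The myeloid list had 3 of 23 regions (13.0%), at the start of Cebpa, beside Cebpb, both genes of C/EBP transcription factors, and beside Itgam, which encodes CD11b. All 3 rose in eTreg cells, where 25.1% of all members and 6.14% of all tested regions were called higher. The Cebpa member had 9.88 and 8.69 CPM in FntbKO eTreg and 22.2, 12.7 and 17 CPM in WT eTreg libraries, and 3.22 and 5.15 CPM in FntbKO cTreg and 8.27, 9.48 and 8.77 CPM in WT cTreg libraries (eTreg over cTreg 1.03, SE 0.19, adjusted p = 0.000906), a call kept without each library. The calls of Cebpb (0.83, SE 0.16, adjusted p = 0.00155) and Itgam (0.83, SE 0.17, adjusted p = 0.00273) were lost without FntbKO eTreg 2. Regions of the myeloid list's genes, admitted or not, summed to 331 to 349 CPM in FntbKO and 362 to 394 in WT eTreg libraries. In cTreg libraries they summed to 268 to 299 CPM in FntbKO and 297 to 368 CPM in WT cells. The sums were lower in FntbKO than in WT libraries without overlap in eTreg cells but not in cTreg cells, and higher in eTreg than in cTreg libraries without overlap in FntbKO but not in WT cells. The part of myeloid cells in the members' values was not tested. The naive CD4 T cell list had 2 of 144, the CD8 T or NK cell list 1 of 29 (beside Eomes), the B cell list 1 of 16 (beside Ebf1), the dendritic cell list 0 of 30 and the erythroid list 0 of 10. Regions of the naive list's genes, admitted or not, summed to 2148 to 2159 CPM in FntbKO and 1746 to 2093 in WT eTreg libraries. In cTreg libraries they summed to 2380.0 to 2487 CPM in FntbKO and 2190.0 to 2319 CPM in WT cells. These sums were higher in FntbKO than in WT libraries without overlap in both subsets, and the part of naive cells in the members' values was not tested. The CD8 T or NK cell list summed to 301 to 303 CPM in FntbKO eTreg and 322 to 362 CPM in WT eTreg libraries, and the dendritic cell list to 360.2 to 368 CPM in FntbKO eTreg and 374 to 404 CPM in WT eTreg libraries. The erythroid list summed to 89.5 to 93.5 CPM in FntbKO cTreg and 77.7 to 86.0 CPM in WT cTreg libraries. In the other subset the genotypes overlapped in each of these lists. CD8 T or NK cell sums were 337 to 346 CPM in FntbKO and 338 to 365 CPM in WT cTreg libraries. Dendritic cell sums were 362 to 376 CPM in FntbKO and 372 to 433 CPM in WT cTreg libraries. Erythroid sums were 71.2 to 84.9 CPM in FntbKO and 68.6 to 74.6 CPM in WT eTreg libraries. The part of these cell types in the members' values was not tested.

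The largest rises between subsets outside the lists were beside 2700097O09Rik (2.15, SE 0.33, adjusted p = 0.000206) and 79.1 kb from Slc17a6, a vesicular glutamate transporter gene (2.04, SE 0.30, adjusted p = 0.000126), each kept without every library in turn. The start of Tlr5, which encodes the flagellin receptor (chromosome 1, 182954639 to 182955173), was the member with the largest fall. It had 0.395 and 0.79 CPM in FntbKO eTreg and 2.15 and 2.35 CPM in FntbKO cTreg libraries, with 2.49, 1.43 and 2.69 CPM in WT eTreg and 4.27, 3.16 and 4.39 CPM in WT cTreg libraries (log2 fold -1.33, SE 0.36, adjusted p = 0.0159). That call was lost without FntbKO eTreg 1 or FntbKO eTreg 2. In the Igh locus 9 of the 22 members rose in eTreg cells and 0 fell, where 25.1% of all members and 6.14% of all tested regions were called higher, and a region at Cdc20b near the granzyme genes (chromosome 13, 113104762 to 113105096) rose by 1.44, SE 0.24, adjusted p = 0.000475, with the call kept without each library.

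Members lay away from gene starts. A start site was inside 144 of the 1589 members with a start-site table for their chromosome (9.06%), against 18.5% of admitted regions, 2.83% of regions chosen with the genotypes exchanged and 9.79% of all admitted regions called higher in eTreg cells. The median distance to a start was 15.8 kb, against 11.7 kb over admitted regions. Of the members 907 (56.1%) overlapped a gene span, against 66.1%, and 94 had no gene within 100 kb. Of the 157 members with a start-site window, 16 (10.2%) had the AP-1 letters, against 5.14% of windows in admitted regions and 7.81% of all windows. The TATA box letters were in 11.5%, against 6.42% and 13.6%, and the SP/KLF letters in 60.5%, against 66.4% and 35.7%. The CCAAT box letters were in 37.6% of members' windows, against 37.8% in admitted regions and 37.4% of all windows. Those of ETS (CCGGAAG) were in 13.4%, against 18.3% and 8.86%, those of the E-box (CACGTG) in 7.01%, against 10.7% and 7.15%, and those of CRE (TGACGTCA) in 2.55%, against 3.35% and 1.79%. These shares are descriptions with no test. The median GC content of the windows was 59.7%, against 61.3% in admitted regions.

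The members were not spread evenly along the chromosomes. With each chromosome cut into 4 parts of equal length, in coordinate order, 49.6% of members lay in the last part and 9.91% in the first, against 33.6% and 18.4% of admitted regions. Member shares were 1.71%, 2.16%, 3.16% and 4.68% of the admitted regions over the 4 parts, first to last. The regions chosen with the genotypes exchanged leaned to the other end, with 19.8% in the last and 29.8% in the first part. The slope was not limited to the members: the median ratio over all admitted regions was 1.08, 1.03, 0.978 and 0.931 over the 4 parts. The last parts held 32.5% and 32.6% of all counts in FntbKO eTreg libraries, against 33.7%, 34.6% and 34.8% in WT eTreg libraries. In cTreg cells they held 31.6% and 32.2% in FntbKO, against 32.96%, 35.4% and 33.8% in WT libraries, so FntbKO libraries were below WT libraries in both subsets. The part of this library-wide slope in the choice of members was not tested. Outside the last parts the 816 remaining members had nearly the same subset change, with 205 called higher and 10 lower in eTreg cells (26.3% called, median 0.33).

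Chromosomes 11 (5.07% of admitted regions), 9 (5.04%), 12 (4.82%) and 7 (4.57%) had the highest shares of members, and chromosomes 18 (1.62%), 16 (1.56%) and X (1.42%) the lowest. The share was higher in the last part than in the rest on 16 of 20 chromosomes, and on chromosome 11 it was 9.46% there, against 2.56% in the rest. Of all members 719 (44.5%) had another within 100 kb, and 42.7% of regions chosen with the genotypes exchanged did. They formed 1164 loci, of which 267 had at least 2 members and 17 at least 5, and touched 1217 genes. After Igh, Slc39a11 and Sh3gl3, the genes with most members were Ano10, Arsg, Rab4a, Stk32c, Tox2 and Zcwpw2 with 5 each, Tox2 encoding a transcription factor of T cells. Regions that were not members also lay lower near them. Their median ratio was 0.844 within 2 kb of a member, 0.899 at 2 to 10 kb, 0.942 at 10 to 50 kb, 0.981 at 50 to 200 kb and 1.02 farther away.

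**Figure D4:**
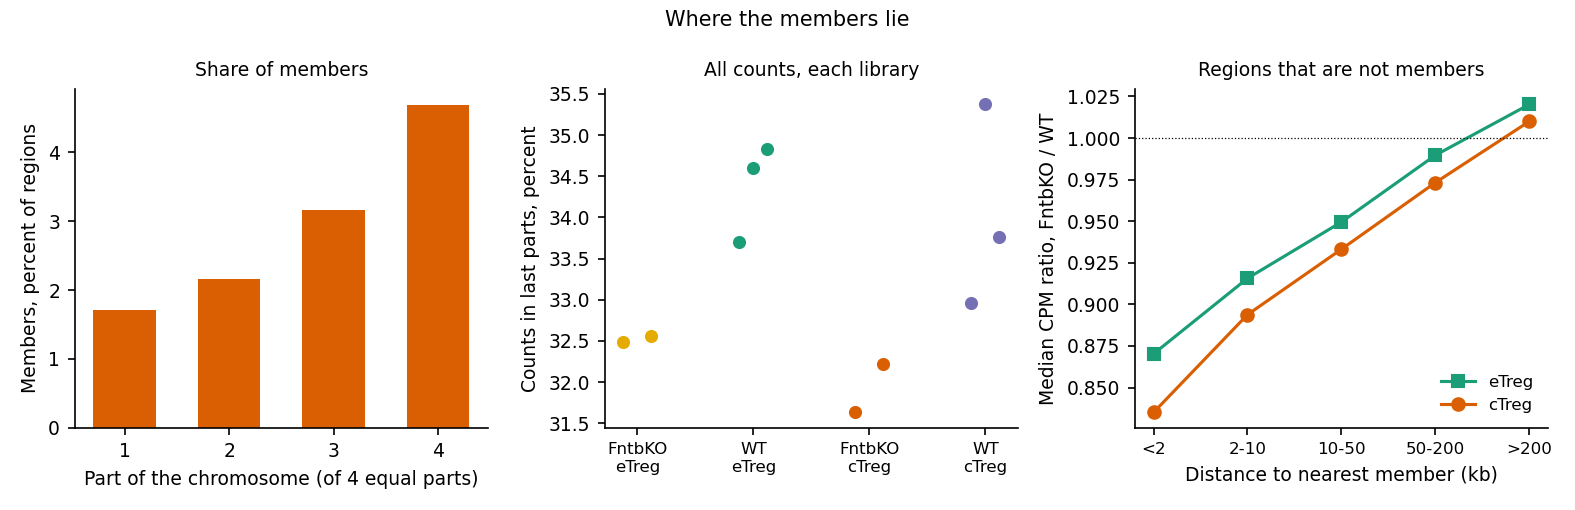
Left, members as percent of admitted regions by part of the chromosome (4 parts of equal length); middle, percent of each library's counts in the last parts, by group (the vertical axis does not start at 0); right, median ratio of FntbKO to WT CPM of regions that are not members, by distance to the nearest member in kb, in eTreg and cTreg cells. Members are densest in the last part (4.68%), FntbKO libraries lie below WT libraries in both subsets, and the ratio nears 1 with distance.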

How the data were processed

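ATAC-seq read counts of 77076 regions in 10 libraries were taken as deposited. The submitters' processing notes name MACS2 2.1.1, Picard 2.9.4, Trimmomatic 0.36, bedtools and SAMtools, and GRCm38 (mm10) as build. Neither the aligner nor the merging of regions is described: both are not given in the sources used here. The deposited counts are raw, and 66.7% to 79.2% of those in a library are even. Coordinates are those of the file, whose base (0 or 1) is not stated.

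CPM is the count over the library's total. Subset contrasts were tested with edgeR 4.0.16 (R 4.3.3) by the quasi-likelihood test, with TMM scaling, robust dispersions, filterByExpr and 1 mean per group over all 10 libraries, which leaves 6 residual degrees of freedom. P-values were adjusted by Benjamini-Hochberg over 76216 tested regions, and a region was called under 0.05. Left-out pairs were compared on log2(CPM + 0.5). DESeq2 1.42.0 was an alternative, and the fit was tested on simulated data.

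A region took the gene whose RefSeq span it overlapped, or the nearest within 100 kb, with loci chained at 100 kb. Start-site sequences on chromosome 18 and scaffolds were not used here. The named members are those with the lowest ratios, the highest WT levels, all at Fntb and the Trim5 family, up to 3 for each of the 6 largest loci and each gene list, the largest subset changes, those nearest the limit and those on promoters. Names of other members of the effector list and of genes with many members were added after their values were seen. The members and lists were chosen with earlier results of these data known. Results for 1 named member and 1 marker gene are not reported here.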

Additional observations from a re-analysis of the deposited data

Results flagged for a closer look

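A member beside Trim5 (chromosome 7, 104292122 to 104292384) changed from cTreg to eTreg cells in opposite directions in FntbKO and in WT cells. It was lower in FntbKO than in WT libraries in both subsets, as the choice asks. It had 1.19 and 0.889 CPM in FntbKO eTreg libraries, above the 0.268 and 0.848 CPM of the FntbKO cTreg libraries. In WT cells it had 4.15, 3.36 and 4.04 CPM in eTreg libraries, below the 10.9, 8.43 and 7.06 CPM of the cTreg libraries. The subset change in FntbKO cells exceeded that in WT cells by 1.84 on the log2 scale (SE 0.68). This difference was flagged by its direction and did not pass edgeR's interaction test (adjusted p = 0.9999), and it rests on 15 counts in each FntbKO group.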

How the results depend on the processing

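The choice gave 971 members at a ratio of at most 0.6, 2373 at 0.8, and 1633 to 2514 when 1 library was left out, the most without FntbKO eTreg 2. The count of members called between subsets ranged over 1 to 180 in FntbKO, 30 to 224 in WT and 191 to 495 averaged when 1 library was left out. The median log2 fold of FntbKO over WT in cTreg cells ranged over -1.07 to -0.72 likewise. The deviations of cTreg and eTreg libraries of the same replicate number correlated by 0.18 in FntbKO and by 0.16, 0.08 and 0.03 in WT cells. Those of different numbers correlated by -0.18 in FntbKO and by -0.13 to 0.04 in WT cells, lower than the same number for every cTreg library. Deviations cancel within a group, so this order cannot decide on a pairing. With 2 libraries in each FntbKO group, the value for different numbers is that for the same number with its sign changed. In WT cells a positive value for the same number likewise lowers the others. The labels do not state pairs, so the main fit took none, and a pairing is not excluded. With the replicate number as a block, 171 members were called in FntbKO, 234 in WT and 476 averaged. Of the following alternatives, those that leave out libraries, chromosome parts or loci were chosen after seeing the data, and the others were planned. Leaving out FntbKO cTreg 1 and WT cTreg 2 gave 8 calls in FntbKO and 269 in WT. Leaving out the last of 4 equal parts of each chromosome gave 48, 84 and 215 calls in FntbKO, in WT and averaged, with 816 members left. DESeq2 size factors, total counts, no filter, halved counts, DESeq2's test and leaving out the 6 largest loci kept each total of called members within 1.5 times. DESeq2's test called 7 members lower in eTreg cells averaged and 2 in WT, against 14 and 5 by edgeR, and the cause was not tested. Of the named members, 32 were called in the averaged subset comparison. Over their 544 alternatives the direction never changed and 80 lost the call, and the subset change of the 45 not called is not reported, but for a Trim5 member given among the results for a closer look. Regions with few counts limit the single values, and 2 libraries in each FntbKO group limit the counts of calls.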
